A study of Mus musculus with 6 samples.

Results

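The creatine kinases and ADP/ATP carriers are the genes of the phosphocreatine shuttle and of the exchange of adenine nucleotides between mitochondria and cytosol. The 8 genes were taken as a list of gene symbols, Ckm, Ckb, Ckmt2, Ckmt1, Slc6a8, Slc25a4, Slc25a5 and Slc25a3. All 8 were found among the 17447 gene rows of the count table. The libraries were made from total RNA of hearts of wild-type mice, 3 with chronic kidney disease (CKD) and 3 sham-operated. CKD mice had the poles of the left kidney cut away and, in a later operation, the whole right kidney removed, which leaves a remnant of kidney tissue. Sham mice were anaesthetised and their kidneys exposed without any tissue being taken. The sources used here give no strain, sex, age or time of tissue collection. Replicate numbers are the sole sign in the labels that hearts came from separate animals.

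Creatine kinase moves a phosphate group between ATP and creatine. In heart muscle the mitochondrial form makes phosphocreatine beside the inner membrane, and the cytosolic form at the myofibrils and ion pumps uses it to restore ATP. Creatine is taken up from the blood by the transporter Slc6a8, ATP leaves the matrix in exchange for ADP through the ADP/ATP carriers, and the phosphate carrier Slc25a3 brings in the phosphate that ATP synthase needs.

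The match between row labels and values was checked first, and it failed in the CKD columns. The Spearman correlation over all rows was 0.984 to 0.987 between CKD columns and 0.982 to 0.985 between sham columns. In the 9 pairings of a CKD with a sham column it lay between -0.0586 and -0.0528. The row labelled Slc25a4 held 1, 0 and 1 counts in the CKD columns, against 62565, 73109 and 77860 in the sham columns. The row labelled Ckm held 1, 0 and 3 counts in the CKD columns, against 29195, 32060 and 35768 in the sham columns. Over the 8 rows the median percentile among all rows was 19.5 in the CKD columns and 98.5 in the sham columns. No CKD value is therefore read as a level of the gene it is labelled with, no comparison of CKD with sham is made, and all that follows describes the 3 sham hearts, whose totals were 10480788, 10474487 and 12669724 counts. Because these are bulk hearts, fewer cells of a type and less RNA per cell cannot be told apart.

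The forms within each family are close relatives, so their sequences are shown first to let a reader see how far reads of the forms can be told apart. Below are 90 coding bases of each creatine kinase around the codon of the active-site cysteine, which begins 30 bases into the window and is residue 283 of Ckm and Ckb and residue 317 of the precursors of Ckmt2 and Ckmt1, counted from the start methionine. Capitals mark bases that differ from Ckm. The sequences come from GENCODE transcripts of build GRCm38.
Ckm: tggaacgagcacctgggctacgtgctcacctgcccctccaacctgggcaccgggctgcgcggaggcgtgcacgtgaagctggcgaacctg
Ckb: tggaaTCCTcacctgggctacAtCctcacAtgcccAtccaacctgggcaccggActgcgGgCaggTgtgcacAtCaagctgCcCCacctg
Ckmt2: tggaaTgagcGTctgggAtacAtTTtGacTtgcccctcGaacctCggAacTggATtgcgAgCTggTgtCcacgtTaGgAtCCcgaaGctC
Ckmt1: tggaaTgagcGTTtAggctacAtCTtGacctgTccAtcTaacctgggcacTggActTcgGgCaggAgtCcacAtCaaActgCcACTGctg
In this window Ckb differed from Ckm at 17 of 90 bases, and Ckmt2 and Ckmt1 at 27 each. Over the whole coding sequence Ckm and Ckb were identical at 75.8% of aligned bases and 79.0% of residues, and their longest identical run was 20 bases. Ckmt2 and Ckmt1 were identical at 71.0% of bases and 78.5% of residues, with a longest run of 39 bases. Ckm and Ckmt2, the cytosolic and mitochondrial forms of muscle, were identical at 59.2% of base alignment columns and 59.5% of protein alignment columns. All identities here are shares of alignment columns with gap columns counted. Proteins of unlike length, such as Ckm with 381 and Ckmt2 with 419 residues, therefore score lower than over their paired residues alone.

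The carriers Slc25a4 and Slc25a5 are shown in the same way around the run of arginines and methionines that marks ADP/ATP carriers, which begins 30 bases into the window at residue 235 of each protein. Capitals mark bases that differ from Slc25a4.
Slc25a4: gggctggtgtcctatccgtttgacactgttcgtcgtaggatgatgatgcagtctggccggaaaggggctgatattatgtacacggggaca
Slc25a5: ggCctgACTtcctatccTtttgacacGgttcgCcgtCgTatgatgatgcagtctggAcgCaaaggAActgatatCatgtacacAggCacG
They differed at 17 of 90 bases here, and over the coding sequence they were identical at 77.5% of bases and 89.6% of residues, with a longest identical run of 20 bases. Slc25a3 belongs to the same carrier family and was identical to Slc25a4 at 18.9% of protein alignment columns, gap columns included. Coding reads longer than 39 bases therefore carry at least 1 difference between the members of each pair compared here. Copies elsewhere in the genome were closer. Of the 50-base windows of the transcript, 46.6% were also found in transcripts of other genes for Slc25a5 (9 other genes, all processed pseudogenes) and 21.9% for Ckb (3 processed pseudogenes, chiefly Gm12892). The share was 0% for Slc25a4, Ckmt1 and Slc6a8, 3.90% for Slc25a3 (a pseudogene), and 11.7% for Ckm and 2.51% for Ckmt2, where the other gene is an annotated antisense RNA of the same locus. The sources used here do not say how reads shared between genes were counted, so the levels of Slc25a5 and Ckb are uncertain. With 100-base windows the shared part was smaller, at 137 of 1141 windows for Slc25a5 and 151 of 1373 for Ckb, and the read length is not given. With strand use not stated the antisense overlaps of Ckm and Ckmt2 cannot be told apart from the genes.

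The 250 bases before the annotated start are shown for the 2 cytosolic creatine kinases and the 2 ADP/ATP carriers, in each of which a muscle form is set beside a form of other tissues, from RefSeq, build GRCm38.p6. Capitals mark matches to TATAA on the gene's strand in the last 40 bases, and, on either strand anywhere in the window, to the box CCAAT, to the E-box form CAGCTG that muscle bHLH factors bind and to AAGGTCA, the half-site of oestrogen-related receptors. The motif TATAA overlaps none of the others in these windows.
Ckm (chr7:19410844-19411093, + strand): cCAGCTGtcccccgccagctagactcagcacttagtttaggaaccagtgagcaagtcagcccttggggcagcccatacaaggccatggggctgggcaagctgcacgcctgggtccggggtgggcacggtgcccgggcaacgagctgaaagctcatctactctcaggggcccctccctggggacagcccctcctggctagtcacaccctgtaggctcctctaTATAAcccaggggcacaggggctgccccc
Ckb (chr12:111672339-111672588, - strand): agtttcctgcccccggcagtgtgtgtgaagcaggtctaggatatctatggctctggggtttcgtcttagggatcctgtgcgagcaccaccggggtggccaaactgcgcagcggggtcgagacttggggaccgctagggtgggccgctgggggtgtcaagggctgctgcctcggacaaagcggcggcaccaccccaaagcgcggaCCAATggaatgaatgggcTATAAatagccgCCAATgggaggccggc
Slc25a4 (chr8:46211063-46211312, - strand): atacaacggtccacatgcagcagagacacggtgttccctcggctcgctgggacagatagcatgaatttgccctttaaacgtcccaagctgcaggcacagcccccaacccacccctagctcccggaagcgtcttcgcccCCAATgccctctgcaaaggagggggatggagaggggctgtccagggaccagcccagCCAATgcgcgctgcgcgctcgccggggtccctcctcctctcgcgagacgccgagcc
Slc25a5 (chrX:36795347-36795596, + strand): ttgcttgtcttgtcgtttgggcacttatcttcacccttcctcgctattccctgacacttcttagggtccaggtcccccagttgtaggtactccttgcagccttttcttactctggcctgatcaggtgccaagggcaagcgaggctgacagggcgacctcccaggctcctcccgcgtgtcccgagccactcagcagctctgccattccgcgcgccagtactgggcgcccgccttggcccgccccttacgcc
TATAA was found in Ckm, beginning 29 bases before the start, and in Ckb, beginning 28 bases before it, and is present in 4.23% of 32851 promoter windows. CCAAT was found at 2 places in Ckb and at 2 places in Slc25a4, against 33.8% of all windows with at least 1 match. CAGCTG was found in Ckm and is present in 4271 of the 32851 windows, and AAGGTCA, present in 4.08%, was found in none of these 4. No match was found for the 4 motifs in the Slc25a5 window. Of the windows not printed, that of Ckmt2 held CAGCTG, beginning at position -107 from the start, and CCAAT at 2 places. The first of 2 annotated windows of Ckmt1 held AAGGTCA, beginning at -179, and the second held CCAAT at -242, while that of Slc25a3 held none of the 4. G and C made up 64.8% of the bases in Ckm, 62.8% in Ckb, 64.8% in Slc25a4 and 61.6% in Slc25a5, with a median of 52.4% over all windows. A match is a description of the letters and not of a bound site.

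Of the creatine kinases, the muscle-type cytosolic form and the sarcomeric mitochondrial form made up nearly all counts, in nearly equal numbers. Levels are given as CPM, the count scaled to a column total of 1000000, with the SD over 3 hearts. Ckm, the cytosolic form of muscle, had 2786, 3061 and 2823 CPM in sham 1, 2 and 3, a mean of 2889.8 ± 149 (SD, n = 3). Ckmt2, the sarcomeric mitochondrial form, had 2739, 3269 and 2888 CPM, a mean of 2966 ± 274. Both were highest in sham 2 and lowest in sham 1. Ckb, the brain-type cytosolic form, had 61.4, 36.9 and 56.0 CPM, a mean of 51.4 ± 12.9. Sham 2 was the low heart for Ckb, and its exact 95% binomial interval of 33.3 to 40.7 CPM did not reach those of sham 1 (56.7 to 66.3) and sham 3 (51.9 to 60.2). Ckmt1, the ubiquitous mitochondrial form known from brain and epithelia, gave 5, 6 and 1 counts in the 3 hearts, which is 0.477, 0.573 and 0.0789 CPM. Its intervals overlapped in all 3 hearts, with 0.155 to 1.11 CPM in sham 1, 0.210 to 1.25 in sham 2 and 0.00200 to 0.440 in sham 3. Intervals cover counting error only.

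By share of creatine kinase counts, Ckmt2 took 49.0%, 51.3% and 50.1% in sham 1, 2 and 3, and Ckm took 49.9%, 48.1% and 48.9%. Ckb took 1.10%, 0.579% and 0.970%, and Ckmt1 a mean of 0.00630% ± 0.00428 (SD, n = 3). Mitochondrial forms together held 50.2% ± 1.16 of the counts. The 4 creatine kinases took 0.591% ± 0.0409 of all counts of the column, the ADP/ATP carriers 0.666% ± 0.0556 and all 8 genes together 1.47% ± 0.106.

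Slc6a8, the sodium- and chloride-dependent creatine transporter, had 291, 280.1 and 253 CPM in sham 1, 2 and 3, a mean of 275 ± 19.7 (SD, n = 3). Scaled by column total, Slc6a8 was highest in sham 1, where Ckm and Ckmt2 were lowest. Its exact binomial intervals in sham 1 (281 to 302 CPM) and sham 2 (270 to 290 CPM) overlapped, so sham 1 and sham 2 cannot be ordered. The order also depends on scaling by column total. The TMM factors, an alternative scale, were 1.02, 0.955 and 1.03 in sham 1, 2 and 3. Dividing by them would place sham 2 above sham 1 for Slc6a8. The enzymes that make creatine, which in the body act mainly in kidney and liver, were low. Gatm, which forms the precursor guanidinoacetate, gave 62, 30 and 87 counts and averaged 5.22 ± 2.09 CPM, and Gamt, which methylates it to creatine, gave 53, 42 and 60 counts and averaged 4.60 ± 0.536 CPM. Per kilobase of transcript, the level of Slc6a8 was 82.9 ± 5.96 CPM, against 4.66 ± 0.543 for Gamt and 2.18 ± 0.875 for Gatm.

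Among the carriers, Slc25a4, the ADP/ATP carrier of heart and skeletal muscle, was the highest of the 8 genes by CPM and, as given below, per length. It had 5969, 6979.7 and 6145 CPM in sham 1, 2 and 3, a mean of 6365 ± 539.7 (SD, n = 3). Slc25a5, the carrier of most other tissues and of dividing cells, had 264, 307 and 307 CPM, a mean of 293 ± 24.6. It took 4.24%, 4.21% and 4.76% of ADP/ATP carrier counts in the 3 hearts. Slc25a3 had 1807, 1945 and 1709 CPM, a mean of 1820.2 ± 119. Alternative exons give Slc25a3 a heart and muscle form and a form of other tissues, and counts per gene do not separate them. Slc25a4 and Slc25a3 were highest in sham 2, as were Ckm and Ckmt2, while Slc25a5 was lowest in sham 1 and about equal in the other hearts.

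**Figure D1:**
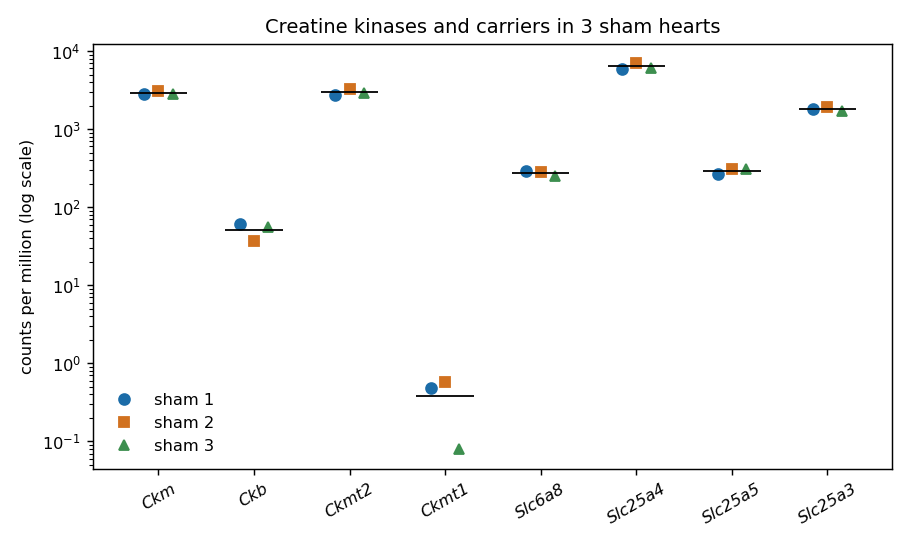
Level of each gene in the 3 sham hearts, in CPM on a log axis. Points are hearts and the short lines are means, with Slc25a4 highest at 6365 CPM and Ckmt1 lowest at 0.376 CPM.

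To compare genes with each other, CPM was divided by the length in kilobases of the best-supported protein-coding transcript in GENCODE. On this scale the order was Slc25a4 (3306 ± 280.4 CPM per kilobase), Ckmt2 (1996 ± 184), Slc25a3 (1129 ± 73.6), Ckm (1054 ± 54.4), Slc25a5 (236 ± 19.9), Slc6a8 (82.9 ± 5.96), Ckb (34.9 ± 8.75) and Ckmt1 (0.232 ± 0.162). Slc25a3 and Ckm were neighbours whose hearts overlapped, since the lowest Slc25a3 heart stood at 1060.1 and the highest Ckm heart at 1116, and they differed by 0.10 ± 0.05 on the log2 scale within hearts. For every other pair of neighbours in this order the lowest heart of the higher gene lay above the highest heart of the lower gene. Per kilobase, Slc25a4 ranked 13 and Ckmt2 ranked 21 among 16856 genes with a length, Slc25a3 42, Ckm 48, Slc25a5 284, Slc6a8 768 and Ckb 1840. Per kilobase of coding sequence alone the order changed at the top, to Slc25a4 (7096 ± 602), Ckm (2522 ± 130.2), Ckmt2 (2354 ± 217) and Slc25a3 (1695 ± 110.5), since 1596 of the 2742 bases of the Ckm transcript are not coding.

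Ratios within each heart were then taken for 5 pairs, per kilobase of transcript. An exact two-sided sign-flip permutation test over 3 hearts cannot give a p below 0.25, and all 5 pairs gave this smallest value. Ckm exceeded Ckb by 24.4, 44.6 and 27.1 times in sham 1, 2 and 3, a mean log2 ratio of 4.95 ± 0.47 (SD, n = 3). With the coding length the mean ratio was 57.5. Sham 2, the heart with the lowest Ckb level, had the highest ratio. Slc25a4 exceeded Slc25a5 by 14.5, 14.6 and 12.9 times, a mean log2 ratio of 3.81 ± 0.10. With the same gene counts, but the number of 50-base windows that no other gene shares as the length, this ratio was 7.37. Reads were not recounted, so that value applies only if shared reads had been left out, which is not known. With coding length the ratio was 21.7. In every heart and under each length scale the muscle form was the higher one in these pairs.

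The summed counts of Ckmt2 and Ckmt1 were 99545 and 12, a ratio of counts of 8295 with an exact binomial 95% interval of 4749 to 16055 for counting error. In sham 3, with 1 count of Ckmt1, the interval of that ratio ran from 6567 to 1445390, so the 3 hearts cannot be ordered. Between compartments, Ckm stood at 0.551, 0.507 and 0.530 times Ckmt2 in the 3 hearts, a mean log2 ratio of -0.92 ± 0.06 (SD, n = 3). With the coding length the ratio was 1.07 and without a length 0.976, so the length scale decides which of the cytosolic and mitochondrial muscle forms is the higher. Slc25a3 stood at 0.361, 0.333 and 0.332 times Slc25a4, a mean log2 ratio of -1.55 ± 0.07, and was below it under every length scale.

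**Figure D2:**
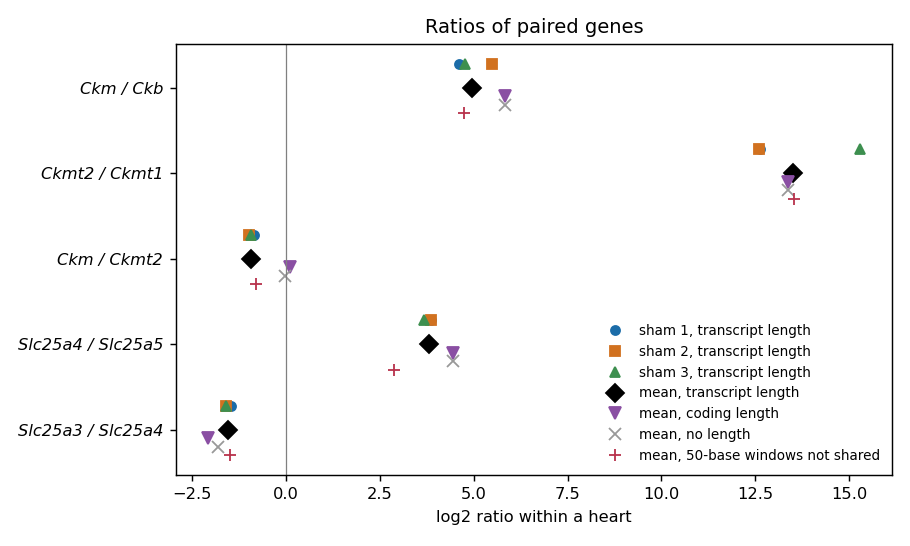
Log2 ratio of the first to the second gene of 5 pairs within each sham heart. Coloured points are hearts per kilobase of transcript and the other symbols are means under 4 length scales; the Ckm to Ckmt2 ratio lies at -0.92 with transcript length and at 0.10 with coding length.

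The genes differed in how much they varied between the 3 hearts. The coefficient of variation, SD over mean, was taken on levels scaled by column total. It was 5.16% for Ckm, 6.52% for Slc25a3, 7.18% for Slc6a8, 8.41% for Slc25a5, 8.48% for Slc25a4 and 9.23% for Ckmt2. Over the 8864 genes with at least 10 CPM its median was 9.32%, and for the 200 genes nearest to each of these 6 in level the median was 6.62% to 7.29%. Ckb stood at 25.1%, where counting alone gives 4.17%, and 94% of the 200 genes nearest to it in level varied less. Ckmt1 varied by 69.6%, where counting alone gives 50.1%.

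Ckm, Ckmt2, Slc25a4 and Slc25a3 were all highest in sham 2 and Ckb was lowest there. Marker lists of cell types also differed between the hearts. The 8 ventricular cardiomyocyte markers summed to 91674 to 101942 CPM, with the highest sum in sham 2. Of these 8, 3 were lowest in sham 1, 0 in sham 2 and 5 in sham 3. Myh6 had the largest mean in the sum, at 38127 CPM. Myl2 was not highest in sham 2, with 123803 counts in sham 1 and 113232 in sham 2 at nearly equal totals. Sham 2 was the lowest heart for 45.6% of the 8864 genes with at least 10 CPM, against 28.2% for sham 1 and 26.2% for sham 3, so being lowest there was common in this table. That share, and the orders of hearts and coefficients of variation of levels given here, depend on scaling by column total. The TMM factor, an alternative scale, was 0.955 for sham 2, against 1.02 for sham 1 and 1.03 for sham 3. Dividing by these factors would raise sham 2 further for Ckm, Ckmt2, Slc25a4 and Slc25a3 and widen their spread between hearts. By how much was not computed. All 5 endothelial markers and all 6 fibroblast markers were lowest in sham 2. The endothelial sum was 1122, 907 and 1181 CPM and the fibroblast sum 1795, 929.6 and 2112 CPM in sham 1, 2 and 3. Smooth muscle markers, 4 of 5 lowest in sham 2, summed to 388, 318 and 618 CPM, and macrophage markers, 4 of 4 lowest in sham 2, to 335, 245 and 395 CPM. Blood markers, the globins and the heme synthesis gene Alas2, had 3 of 4 lowest in sham 2 and summed to 100.0, 76.5 and 445 CPM, with sham 3 far the highest. The part of these cell types in the levels was not tested. Relative to the summed cardiomyocyte markers, the coefficient of variation was 1.42% for Ckm, 2.27% for Slc25a3, 3.06% for Slc25a4 and 4.22% for Ckmt2, each below that of the plain level. It was 8.25% for Slc25a5, close to the plain value, and 7.87% for Slc6a8, above it. For Ckb it was 29.5% relative to the cardiomyocyte markers, 19.8% relative to the fibroblast markers and 14.8% relative to the endothelial markers. How many other genes of like level become steadier relative to these sums was not computed, so none of this is read as particular to these genes. Ckb was higher in sham 1 than in sham 3, with overlapping intervals, whereas the endothelial and fibroblast sums were highest in sham 3. The atrial, fat, and neuron and glia sums, given below, were highest in sham 1 and lowest in sham 2, as Ckb was. Ratios of Ckb to those lists were not taken.

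Markers of other tissues that are rich in these enzymes were mostly low. Of the 8 fast skeletal muscle markers, Myh4, Myh1 and Myh2 were at 0 in every sham heart, 1 reached 1 CPM (Tnni2, 13, 12 and 24 counts) and the list summed to 2.29 to 5.45 CPM. Of the 7 neuron and glia markers Snap25 and Th were at 0, 3 reached 1 CPM, and the list summed to 15.3 CPM in sham 1, 7.54 in sham 2 and 8.13 in sham 3. Ucp1, which marks brown fat, was at 0, and the 5 fat markers summed to 31.3 to 49.1 CPM. Of these Cidea, with 228, 316 and 380 counts, had the highest mean, while Car3 had 229, 6 and 175 counts. Atrial markers differed widely, with a sum of 2398 CPM in sham 1, 68.5 in sham 2 and 449 in sham 3. A gene at 0 counts can reach 3 counts unseen, which is 0.237 to 0.286 CPM in these columns.

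**Figure D3:**
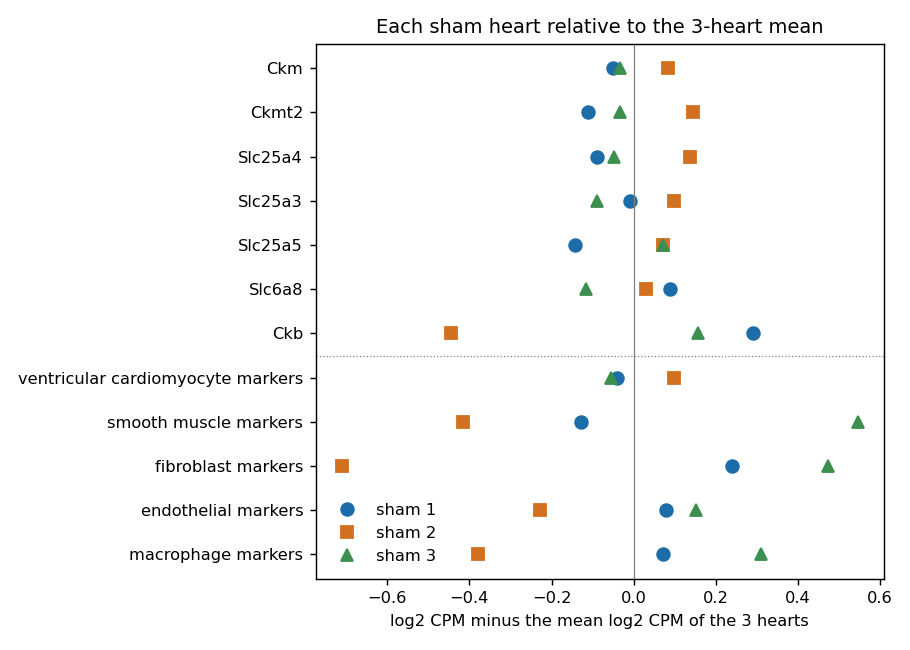
Level of each gene and of summed marker lists in each sham heart, as log2 CPM minus the mean of the 3 hearts. Above the dotted line Ckm, Ckmt2, Slc25a4 and Slc25a3 are highest in sham 2 and Ckb is lowest there; below it the fibroblast, endothelial, smooth muscle and macrophage sums are lowest in sham 2.

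By a fixed measure of likeness, the largest absolute difference in log2 CPM after centring each gene over the 3 hearts, the genes most like Ckmt1, the most variable member, were Amy1 (0.59), Nrn1 (0.64) and Per1 (0.72). With 12 counts of Ckmt1 in all, this order has little meaning. For Ckb, looked up after its values were seen, the nearest were Sox4 (0.00045), Cd93 (0.013) and Cbfb (0.016), and 109 of 8862 genes lay within 0.1. The measure covers 3 hearts.

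Around the creatine shuttle, other enzymes of phosphate transfer were also read. Of 9 adenylate and nucleoside diphosphate kinases, 6 had a mean of 1 CPM or more and 3 of 100 CPM or more. Ak1, the cytosolic adenylate kinase that turns ADP into ATP and AMP, stood at 618 ± 27.7 CPM. The matrix form Ak3 averaged 160 ± 4.99 CPM. The highest of this list per kilobase was Nme2, a nucleoside diphosphate kinase, at 365 ± 27.2 CPM per kilobase, followed by Ak1 at 296 ± 13.3, and the lowest was Ak5 with 1, 0 and 0 counts. Ckm was thus above both on that scale, at 1054 ± 54.4.

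Of 7 other carriers of ATP, phosphate or related nucleotides, 5 averaged at least 1 CPM and 0 reached 100 CPM. Slc25a31, the ADP/ATP carrier of testis, gave 4, 10 and 0 counts. The ATP-Mg/phosphate carriers were lower per kilobase than Slc25a4, with Slc25a23 at 18.7 ± 0.924 and Slc25a24 at 3.10 ± 0.338 CPM per kilobase. Slc25a42, which carries coenzyme A and adenine nucleotides, was the highest of the list at 27.2 ± 6.36 CPM per kilobase and gave 677, 1092 and 1169 counts. Slc25a41 was at 0 in every sham heart.

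The outer-membrane channels through which nucleotides and phosphocreatine pass were all measured. Vdac1 stood at 599 ± 40.3 CPM per kilobase, Vdac2 at 249 ± 20.3 and Vdac3 at 183 ± 7.27. Ppif, cyclophilin D of the permeability transition, stood at 156 ± 5.36 CPM per kilobase, and Tspo was the lowest of these 5 at 29.2 ± 6.55. Of 10 AMP deaminases and AMP-activated kinase subunits, 9 averaged at least 1 CPM. Prkag1, a regulatory subunit, was the highest at 72.5 ± 5.99 CPM per kilobase. The catalytic subunit Prkaa2 stood at 26.1 ± 2.88 and Prkaa1 at 5.06 ± 0.735 CPM per kilobase. Ampd1, the AMP deaminase of skeletal muscle, was at 0 in every sham heart, and Ampd3 averaged 67.4 ± 8.74 CPM.

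**Figure D4:**
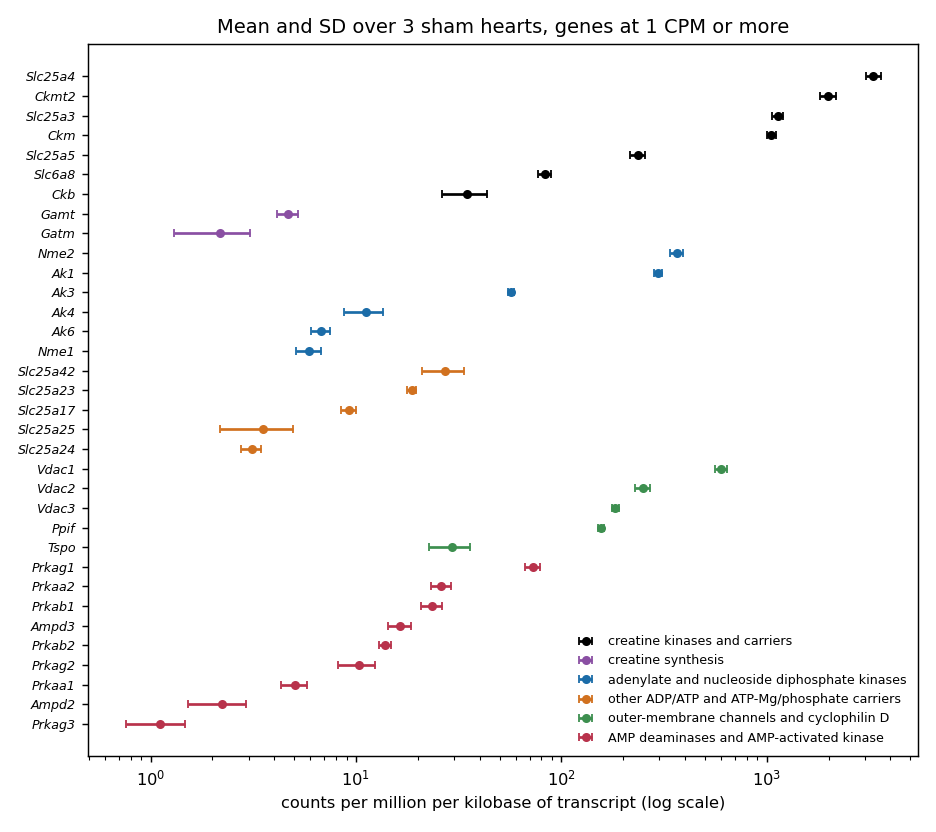
Mean level in 3 sham hearts of the 34 genes with at least 1 CPM from the creatine kinases and carriers and 5 related lists, in CPM per kilobase of transcript on a log axis, with SD bars. Slc25a4, Ckmt2, Slc25a3 and Ckm, between 1054 and 3306, lie above all genes of the other lists, of which Vdac1 is the highest at 599.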

How the data were processed

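Total RNA of 6 mouse hearts was sequenced. The authors deposited raw counts per gene symbol in 1 table with a column per heart. The tools named are Trimmomatic, HISAT2, HTSeq and DESeq, with build mm9, per the submitters' processing notes. The sources used here give no versions, settings, strand use, annotation or read length. Columns were matched to hearts by name. All 6 carry the same batch label.

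CPM was computed here as the count over the column total. Transcript and coding lengths and transcript sequences came from GENCODE vM21 (GRCm38), by symbol, for 16856 of 17447 rows; of several transcripts the basic protein-coding one with the best support, then APPRIS principal, CCDS and the longest was taken. RefSeq promoters (GRCm38.p6) matched 7 of 8 genes. Since both differ from mm9, they served for lengths and sequence only. Identity was computed with Biopython 1.88 as identical positions over all alignment columns, gap columns included. Shared windows were found by exact match on both strands. TMM factors came from edgeR 4.0.16 and size factors from DESeq2 1.42.0 as alternatives; neither tool's test was run, because the labels of the CKD columns did not match. Exact permutation tests flipped the sign of within-heart log2 ratios. The scripts were tested on simulated counts with 200 genes changed by 4 times.

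Genes named were the 8 members, set lists of related genes and markers, and the 3 genes most like the most variable member. Of the lists, the text names the highest and lowest genes and those whose role called for it; 1 gene was taken out of its list and is not reported here. Members and lists were chosen with earlier results of these data known. Levels relative to markers, genes like Ckb, the unshared-window and merged-exon scales and the steadiness of ratios were added after the data were seen.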

Additional observations from a re-analysis of the deposited data

Results flagged for a closer look

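The row labelled Ckmt1 stood out because a column set not used in the comparisons held a signal above the sham level. It held 3852, 3538 and 4015 counts in the CKD columns (mean 3802), against 5, 6 and 1 in the sham columns (mean 4). The labels of the CKD columns did not match their values over the whole table, so this is not read as a level of Ckmt1 in CKD hearts. The other 7 rows were lower in every CKD column than in every sham column. With labels that do not match this says nothing about these genes, and the share of all rows that do so is not given.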

How the results depend on the processing

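No paired analysis was possible because no comparison of CKD with sham was made. Leaving out each heart in turn moved 0 results by 1 SD or more, which says nothing of stability, since dropping 1 value of 3 shifts a mean by less than that. It gave 46.4 to 58.7 CPM for Ckb, 0.278 to 0.525 for Ckmt1 and 4.68 to 5.12 for the log2 ratio of Ckm to Ckb. TMM and size factors moved no 3-heart mean level by 1 SD, which likewise says nothing of stability. The TMM factors were 1.02, 0.955 and 1.03 in sham 1, 2 and 3, and shifts of single hearts in opposite directions cancel in a mean. Apart from the order of sham 1 and sham 2 for Slc6a8, levels per heart and their spread were not recomputed with either set of factors. Leaving the 10 highest rows out of the total raised Ckm to 3365, Ckmt2 to 3454, Slc6a8 to 320.1, Slc25a4 to 7414, Slc25a5 to 341 and Slc25a3 to 2119.9 CPM, because the total is smaller. Per transcript length, the shares were 34.2% for Ckm, 64.6% for Ckmt2, 93.3% for Slc25a4 and 6.67% for Slc25a5. The log2 ratio of Ckm to Ckmt2 changed sign with coding length, at 0.10; it kept its sign at -0.0346 without a length and at -0.80 with unshared windows. Ckm to Ckb was 5.85 with coding length and without a length. Slc25a4 to Slc25a5 was 4.44 under both and 2.88 with unshared windows. Slc25a3 to Slc25a4 was -2.06 with coding length, -1.80 without a length and -1.82 with merged exons. Apart from leaving out hearts, 9 of 20 ratio, 18 of 24 level and 2 of 6 share alternatives moved by less than 1 SD. The level count includes the means under TMM and size factors, which could hardly move. Depth limits Ckmt1, with 12 counts in all.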

Other observations

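Within hearts the ratio of Ckmt2 to Slc25a4 was steadier than either level. The SD of its log2 value was 0.019, the lowest of the 21 pairs among the 7 genes with at least 10 CPM. The coefficients of variation of Ckmt2 and Slc25a4, which are on another scale than a log2 SD, were 9.23% and 8.48%. Ckm to Slc25a4 followed at 0.047, and the 6 pairs with Ckb ran from 0.41 to 0.52. Of 103 other genes with at least 1000 CPM, ordered from the steadiest ratio to Slc25a4, Ckmt2 was number 5, Ckm number 13 and Slc25a3 number 35, with a median SD of 0.10 over these genes. These are 3 hearts, the pattern was seen and then measured on the same values, and no test was made.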
